A study of Mus musculus with 12 samples.

Results

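The interferon regulatory factors (IRFs) are a family of transcription factors that bind interferon-stimulated response elements (ISREs) through a shared DNA-binding domain. The 7 members described here, Irf1, Irf2, Irf3, Irf5, Irf7, Irf8 and Irf9, were taken by symbol from the 38215 genes of the count table, and the exon bins of the same genes were taken from the exon-level counts. All 7 were measured in all 12 libraries, and all 7 passed the filter on low counts that left 14983 genes in the test. The fewest counts of any member in a library were 172 (Irf1) and the most were 66231 (Irf7).

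In macrophages, lipopolysaccharide (LPS) is sensed by TLR4. The adaptor TRIF, acting through TRAM, leads to phosphorylation of IRF3, which induces interferon-β, and the secreted interferon then acts back on the same cells through its receptor to assemble ISGF3, a complex that contains STAT2 and IRF9 and induces IRF7 and a wide set of antiviral genes. Other members act beside this loop: IRF1 activates and IRF2 opposes transcription at many of the same elements, IRF5 works downstream of MyD88 on inflammatory cytokine genes, and IRF8 with PU.1 maintains the myeloid gene program.

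RAW264.7 cells, an established macrophage line from a BALB/c mouse, were nucleofected with a nontargeting control siRNA or with an siRNA against SF3a1, a subunit of the SF3a complex of the U2 snRNP that takes part in branch point recognition during splicing. The siRNA was given 24 h before the cells received LPS at 20 ng/ml for 4 h or no LPS. This gave 4 groups of 3 libraries of polyadenylated RNA, numbered 1 to 3 in each group. Per the study's methods, treatments and exposures were each done in triplicate, so the p-values measure the spread between these replicate treatments of 1 cell line. Every cell was RAW264.7, so nothing here was measured in primary macrophages, and knockdown left part of the SF3a1 mRNA in place.

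Each library held between 12746019 and 41091887 reads counted in genes. Library depth followed the replicate number, because replicate 1 was the deepest library of every group. Reads in no gene moved with the knockdown in unstimulated cells, at 27.2, 21.6 and 20.8% of the SF3a1 siRNA libraries against 18.2, 19.6 and 17.8% of the controls. With LPS these shares overlapped (19.9, 18.2 and 21.4% against 19.8, 19.3 and 17.8%). Their part in the knockdown results was not tested. The replicate 1 libraries also stood apart from the others. Across tested genes, deviations from the group means correlated at −0.59 to −0.18 between a replicate 1 library and a library with another number, and at 0.45 to 0.66 between replicate 1 libraries of different groups. Values without all 4 of these libraries are therefore given where a call or a size depended on them.

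The target itself behaved as labelled. Sf3a1 stood at 173, 216 and 185 CPM (counts scaled to library size and composition) in control siRNA cells without LPS and at 150.0, 194 and 157 with LPS. Under SF3a1 siRNA it stood at 27.1, 27.5 and 32.1 without LPS and at 30.3, 26.7 and 45.0 with LPS. The knockdown libraries did not overlap the controls, at 15.1% of the control level without LPS and 20.4% with LPS (edgeR adjusted p = 1.14e-05 and 1.47e-05).

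The libraries carried a macrophage signature. The 8 macrophage markers summed to between 8839 and 13000 CPM per library, led by Lyz2, the macrophage lysozyme. The lists for T cells, B cells, and fibroblasts or epithelial cells each summed to no more than 0.544 CPM in any library, and none of their genes passed the filter. Dendritic cell markers summed to 1.6 to 3.45 CPM, with Zbtb46 the most abundant by group mean in all 4 groups except control siRNA with LPS, where Xcr1 stood at 1.13 and Zbtb46 at 0.77. Mrc1, the mannose receptor, stayed below 1 CPM in every group mean. In these bulk samples, fewer cells expressing a gene and less RNA per cell cannot be told apart.

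The IRFs differed widely in abundance. Per kilobase of joined exons, the level of Irf5 in unstimulated control cells was 112 CPM, followed by Irf3 at 20.1 and Irf8 at 13.1. Irf9 at 7.39, Irf7 at 7.38, Irf2 at 7.07 and Irf1 at 4.99 came last, and each of these 4 overlapped its neighbour in the order. In control cells LPS moved Irf7 to the top at 312 CPM per kilobase, above Irf5 at 152 and Irf1 at 52.4, while the ranges of neighbours overlapped from Irf1 downward. Among knockdown libraries with LPS, Irf5 led at 142 CPM per kilobase, Irf7 followed at 57.6 and Irf9 at 25.1, and Irf8 came last at 5.01. Scaling by the longest transcript instead of the joined exons left only 3 of 7 genes at the same rank in each group without LPS.

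**Figure D1:**
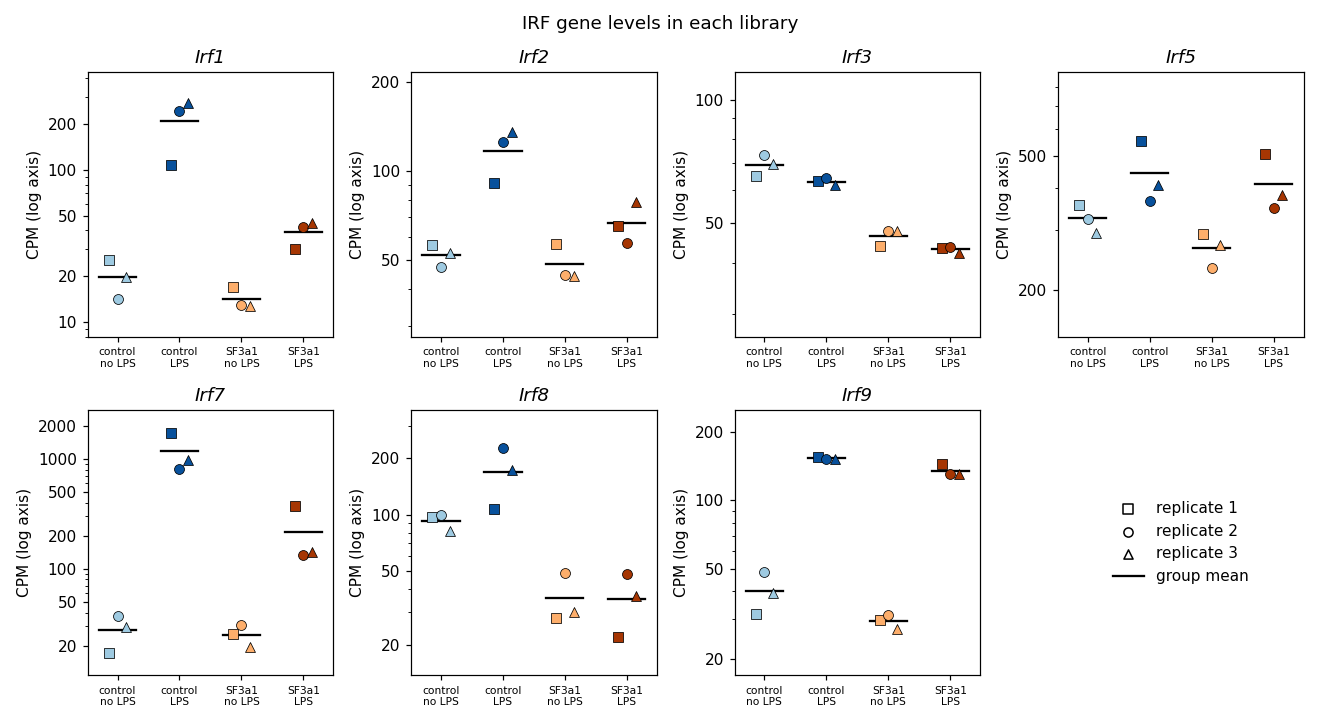
CPM of each IRF gene in the 12 libraries (log axis), with 1 panel per gene and 1 point per library in the 4 groups of siRNA and LPS. Irf7 spans the widest range, from 17.2 to 1743 CPM, while the 3 libraries of each group of Irf3 lie close together.

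IRF3, the constitutive factor activated by TBK1 and IKKε, moved with the siRNA and did not pass the test for LPS. Irf3 stood at 64.9, 73.0 and 69.5 CPM in control siRNA cells without LPS and at 63.1, 64.2 and 61.9 with LPS. In SF3a1 siRNA cells it stood at 43.9, 47.7 and 47.7 CPM without LPS and at 43.4, 43.8 and 42.2 with LPS. Every knockdown library lay below every control library. Irf3 fell to 67.1% of control without LPS (log2 fold change −0.58, SE 0.11, edgeR adjusted p = 0.00262) and to 68.3% with LPS (−0.55, SE 0.11, adjusted p = 0.00298). The log2 fold change with LPS was −0.13 in control cells (adjusted p = 0.463) and −0.11 in SF3a1 siRNA cells (adjusted p = 0.727).

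Irf7 encodes the interferon-inducible partner of IRF3 that amplifies type I interferon production. It stood at 17.2, 37.0 and 29.4 CPM in control siRNA cells without LPS and at 1743, 817 and 979 CPM with LPS. Under SF3a1 siRNA the values were 25.2, 30.8 and 19.5 CPM without LPS and 376, 135 and 141 CPM with LPS. Replicate 1 was the highest library in both LPS groups, and the 2 unstimulated groups overlapped. LPS raised Irf7 42.4-fold in control cells (log2 fold change 5.41, SE 0.50, edgeR adjusted p = 5.1e-06) and 8.63-fold in SF3a1 siRNA cells (3.11, SE 0.45, adjusted p = 7.13e-04). SF3a1 knockdown lowered Irf7 to 18.4% of control with LPS (−2.44, SE 0.43, adjusted p = 0.00114), while without LPS the log2 difference was −0.14 (adjusted p = 0.853). These sizes depended on replicate 1. Without replicate 1 of the knockdown group with LPS, the rise in SF3a1 siRNA cells was 2.45 and the knockdown effect with LPS −3.09 on the log2 scale, and in replicates 2 and 3 alone the rise in control cells was 4.76. Each of these was called.

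Irf9 encodes the DNA-binding subunit of ISGF3. Its level was 31.6, 48.6 and 39.1 CPM in control siRNA cells without LPS and 156, 152 and 152 CPM with LPS. With SF3a1 knocked down, the level was 29.8, 31.4 and 27.3 CPM without LPS and 144, 130.4 and 131 CPM with LPS. LPS separated the libraries completely under either siRNA, and the LPS-treated libraries differed little within a group. Irf9 rose 3.86-fold in control cells (log2 fold change 1.95, SE 0.16, edgeR adjusted p = 1.54e-06) and 4.58-fold in SF3a1 siRNA cells (2.19, SE 0.16, adjusted p = 2.88e-06). With LPS, the knockdown changed it by −0.18 on the log2 scale (adjusted p = 0.403). Without LPS it fell to 74.3% of control (−0.43, SE 0.15, adjusted p = 0.0558), a call that was lost without replicate 2 of the unstimulated control group (−0.18, adjusted p = 0.446), without its replicate 3 (−0.35, adjusted p = 0.192), and without replicate 1 (−0.43, adjusted p = 0.113) or 3 (−0.37, adjusted p = 0.18) of the unstimulated knockdown group. It held in replicates 2 and 3 alone (−0.58, adjusted p = 0.0126) and with the block (−0.42, adjusted p = 0.0286).

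Irf1, which encodes an activator induced by interferons and by NF-κB, was at 25.6, 14.2 and 19.7 CPM in control siRNA cells without LPS and at 108, 242 and 275 CPM with LPS. In SF3a1 siRNA cells it was at 16.9, 12.9 and 12.8 CPM without LPS and at 30.2, 42.2 and 44.5 CPM with LPS. Replicate 1 was the lowest of the 3 libraries in both LPS groups, opposite to its place for Irf7. LPS raised Irf1 10.5-fold in control cells (log2 fold change 3.39, SE 0.34, edgeR adjusted p = 1.07e-05) and 2.73-fold in SF3a1 siRNA cells (1.45, SE 0.32, adjusted p = 0.0146). With LPS, the knockdown libraries held 18.7% of the control level (−2.42, SE 0.33, adjusted p = 1.89e-04). Without LPS the 2 groups overlapped (−0.48, adjusted p = 0.301).

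The antagonist gene Irf2 moved less. It stood at 56.4, 47.4 and 53.1 CPM in control siRNA cells without LPS and at 91.3, 125 and 136 CPM with LPS. Under SF3a1 siRNA it stood at 56.6, 44.7 and 44.1 CPM without LPS and at 65.4, 57.2 and 78.8 CPM with LPS. LPS raised Irf2 2.24-fold in control cells (log2 fold change 1.16, SE 0.18, edgeR adjusted p = 4.1e-04). With SF3a1 knocked down, the change was 0.47 (SE 0.18, adjusted p = 0.163), and it passed in the fit with the replicate block (adjusted p = 0.084) and in replicates 2 and 3 alone (0.62, adjusted p = 0.0371). SF3a1 knockdown lowered Irf2 to 57.2% of control with LPS (−0.80, SE 0.18, adjusted p = 0.0049), and the unstimulated groups overlapped (−0.11, adjusted p = 0.717).

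Irf5, the most abundant member per kilobase without LPS, stood at 356, 325 and 296 CPM in control siRNA cells without LPS and at 553, 367 and 408 CPM with LPS. In SF3a1 siRNA cells its level was 292, 232 and 272 CPM without LPS and 504, 349 and 382 CPM with LPS. The LPS libraries lay above the unstimulated ones under both siRNAs. Under SF3a1 siRNA Irf5 rose 1.55-fold (log2 fold change 0.63, SE 0.19, edgeR adjusted p = 0.06), a call lost in 5 of 12 omissions of 1 library. These were replicates 2 and 3 of both unstimulated groups and replicate 1 of the knockdown group with LPS, with log2 fold changes of 0.46 to 0.65 and adjusted p up to 0.218. The call held in replicates 2 and 3 alone (0.54, adjusted p = 0.0323) and with the block (0.62, adjusted p = 0.00278). In control cells the change of 0.44 (SE 0.19, adjusted p = 0.102) lay just outside the threshold and passed with the replicate block (adjusted p = 0.0112). The effect of the knockdown was −0.29 without LPS (adjusted p = 0.278, and 0.0573 with the block) and −0.10 with LPS (adjusted p = 0.722).

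Irf8 had its highest levels in control cells with LPS and its lowest in knockdown cells with or without LPS. Its level in control siRNA cells was 96.4, 99.9 and 81.7 CPM without LPS and 107, 227 and 174 CPM with LPS. With SF3a1 knocked down, the level was 27.6, 48.6 and 30.1 CPM without LPS and 22, 47.8 and 36.3 CPM with LPS. No knockdown library reached the lowest control library. Knockdown lowered Irf8 to 38.2% of control without LPS (log2 fold change −1.39, SE 0.32, edgeR adjusted p = 0.00649) and to 20.8% with LPS (−2.26, SE 0.33, adjusted p = 3.09e-04). LPS raised it 1.83-fold in control cells (0.87, SE 0.31, adjusted p = 0.0599), and the change in SF3a1 siRNA cells was −0.01 (adjusted p = 0.995). The call in control cells was lost in 5 of 12 omissions of 1 library, those of each unstimulated control library and of replicate 2 (0.60, adjusted p = 0.237) or 3 (0.85, adjusted p = 0.117) of the control group with LPS. It held in replicates 2 and 3 alone (1.14, adjusted p = 0.00301) and with the block (0.78, adjusted p = 0.00513).

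Counted over the family, LPS in control cells raised 5 of 7 IRFs and lowered none, where 32.1% of all tested genes were called in either direction and 13.8% were called higher. The median log2 fold change of the 7 was 1.16, against −0.02 over all tested genes. All 7 had ranges that did not overlap between the 2 groups, as did 40.2% of all genes. In SF3a1 siRNA cells LPS raised 4 of 7 (Irf1, Irf5, Irf7 and Irf9) and lowered none, against 10.7% of genes called, 6.6% higher and 4.06% lower, with a median of 0.63 against 0.01. Here 6 of 7 did not overlap, against 24.8% of genes.

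SF3a1 knockdown without LPS lowered 3 of 7 (Irf3, Irf8 and Irf9) and raised none, against 33.8% of genes called and 20.1% called lower. This count is near the share called in either direction. With the replicate block Irf5 was called lower as well (edgeR adjusted p = 0.0573), against 47.1% of all genes called and 26.3% called lower. The median of the members was −0.43, against −0.02 over all genes, and 4 of 7 did not overlap, against 45.6%. With LPS, knockdown lowered 5 of 7 (Irf1, Irf2, Irf3, Irf7 and Irf8) and raised none, against 38.8% of genes called and 20.4% called lower. The median was −0.80 against −0.04, and 6 of 7 did not overlap, against 39.1% of genes. The comparisons share groups of libraries and are not independent of each other. An exact permutation test of a single gene, 3 libraries against 3, cannot go below p = 0.1.

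**Figure D2:**
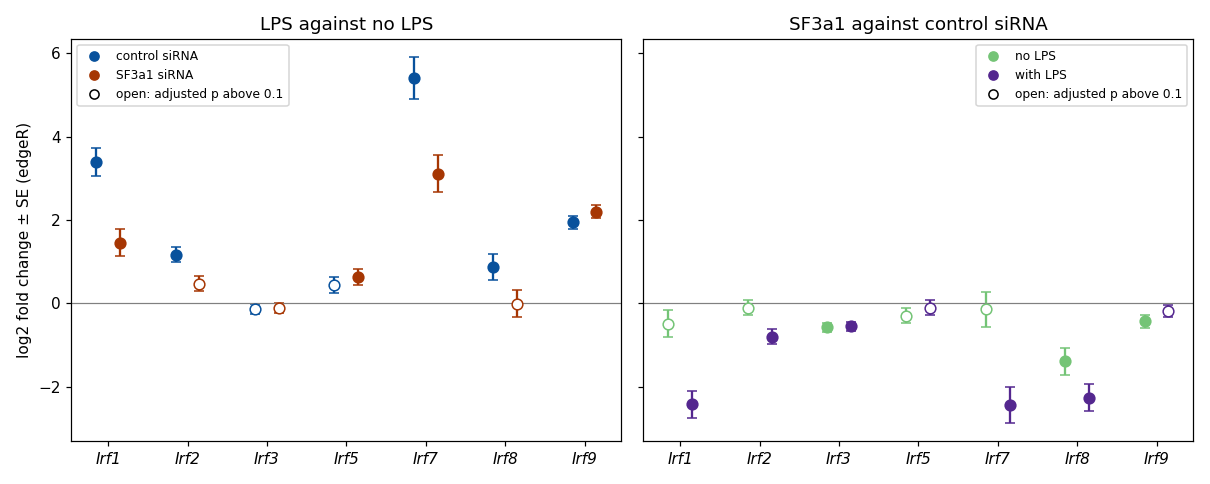
Log2 fold change with its standard error for the 7 IRF genes in each comparison, where filled points passed an adjusted p of 0.1. Irf7 has the largest rise with LPS (5.41 in control cells), and Irf1, Irf7 and Irf8 have the largest falls with SF3a1 siRNA in the presence of LPS (−2.42, −2.44 and −2.26).

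Whether the knockdown effect itself differed with LPS was tested as an interaction, which was called for 3.47% of genes, and as a lower effect with LPS than without for 1.94%. It was called for Irf1 (log2 difference −1.94, SE 0.45, edgeR adjusted p = 0.046) and Irf7 (−2.30, SE 0.59, adjusted p = 0.0743). Irf1 lost the call in 4 of 12 omissions of 1 library, those of replicates 2 and 3 of either control siRNA group (−1.97 to −1.68, adjusted p up to 0.11). Irf7 kept it only without replicate 2 of either control siRNA group or without replicate 1 of the knockdown with LPS, and in the other 9 omissions of 1 library it was lost (−2.45 to −1.91, adjusted p up to 0.178). In replicates 2 and 3 alone both passed (−2.18, adjusted p = 0.00103 and −2.31, adjusted p = 0.00193). With the replicate block, both passed again (Irf1 −1.92, adjusted p = 0.0166, and Irf7 −2.28, adjusted p = 0.0186). Irf2 (−0.71, adjusted p = 0.0892) and Irf8 (−0.81, adjusted p = 0.0918) passed there as well, giving 4 of 7 called. Of all genes the block called 11.7%, and 5.18% with a lower effect with LPS than without. For Irf9, whose LPS response was 1.95 in control cells and 2.19 in knockdown cells, the difference was 0.25 with an SE of 0.21 (adjusted p = 0.768).

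The 250 bases upstream of the RefSeq start (build GRCm38.p6) are shown for Irf1 and Irf8. These 2 stretches were chosen because they hold motif matches and lie before any annotated exon, not for how the genes responded. Irf3, which also fell with SF3a1 knockdown with and without LPS, held no match. Capitals mark matches to the interferon-γ activated site (GAS, TTCNNNGAA) and, in Irf1, the NF-κB consensus. Irf1 lies at chr11:53769764-53770013 and Irf8 at chr8:120736108-120736357, both on the plus strand.
Irf1: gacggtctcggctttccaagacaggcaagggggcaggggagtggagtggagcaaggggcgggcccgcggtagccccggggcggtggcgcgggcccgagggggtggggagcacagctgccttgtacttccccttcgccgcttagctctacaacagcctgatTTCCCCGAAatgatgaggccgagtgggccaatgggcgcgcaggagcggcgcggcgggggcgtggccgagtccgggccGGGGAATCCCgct
Irf8: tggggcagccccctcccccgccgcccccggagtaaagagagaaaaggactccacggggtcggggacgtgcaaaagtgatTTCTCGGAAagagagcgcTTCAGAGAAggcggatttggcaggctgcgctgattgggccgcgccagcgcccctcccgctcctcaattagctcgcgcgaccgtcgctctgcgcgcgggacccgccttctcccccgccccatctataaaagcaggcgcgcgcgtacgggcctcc

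Counted from the start site, the GAS match of Irf1 began at position −90 and the NF-κB match at −13. In Irf8 the GAS matches began at −171 and −153. Windows of 300 bases reaching past the start were searched on both strands for all 7 genes, 10 windows in all, for these motifs and for the ISRE core (GAAA, any 2 bases, GAAA). Irf2 held an ISRE core match (GAAAATGAAA) at −241, a GAS match (TTCCGAGAA) at −224 and an NF-κB match (GGGGATTTCC) at −17. The first base of the Irf2 window lies in an annotated exon, and whether each match lies in an exon was not determined. Irf3, Irf5, Irf7 and Irf9 held no match to these letters in their windows. Across all 32851 promoter windows, 3.44% held the ISRE core, 8.30% the GAS motif and 4.51% the NF-κB consensus. A match is a description of sequence only, since no binding was measured here.

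Counts of genes of the pathway stand against the shares of all tested genes called higher and lower. These were 13.8 and 18.3% for LPS in control cells and 6.6 and 4.06% for LPS in SF3a1 siRNA cells. The knockdown shares were 13.7% higher and 20.1% lower in unstimulated cells, against 18.4% higher and 20.4% lower in stimulated cells. For the interaction, 1.94% of genes were called with a lower knockdown effect with LPS than without, and 1.54% with a higher one.

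Of 29 tested genes of the route from pattern receptors to IRF3 and IRF7, 13 rose and 2 fell with LPS in control cells (median log2 fold change 0.53). Ifih1, the cytosolic RNA sensor MDA5, rose from 9.89 ± 2.90 to 532 ± 197 CPM (mean ± SD, n = 3). Ddx58, which encodes RIG-I, rose from 18.1 ± 6.63 to 565 ± 9.78 CPM. Ikbke, the inducible IRF3 kinase IKKε, rose from 12.3 ± 1.93 to 275 ± 50.8 CPM, and the ubiquitin ligase gene Peli1 rose 3.36 on the log2 scale (edgeR adjusted p = 2.04e-05).

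With LPS, SF3a1 knockdown lowered 12 of these 29 genes and raised 3 (median −0.39). The replicate block gave 18 and 3, where it lowered 26.3% and raised 24.6% of all genes. Ifih1 stood at 126 ± 53.4 CPM (log2 fold change −2.07, edgeR adjusted p = 9.46e-04), Ikbke at 70.8 ± 24.8 CPM (−1.96, adjusted p = 1.48e-04) and Ddx58 at 147 ± 45.4 CPM (−1.94, adjusted p = 3.44e-04). Tlr3, the endosomal receptor for double-stranded RNA, rose with LPS from 4.78 to 45.0 CPM in control cells, stood at 8.65 and 11.8 CPM without and with LPS in knockdown cells, and had an interaction of −2.79 (adjusted p = 0.00408). The interaction was called as a lower knockdown effect with LPS than without for 3 of the 29. It was called as a higher one for 1, Ticam2 (1.06, edgeR adjusted p = 0.0584). With the block these counts were 11 and 1, against 5.18 and 6.54% of all genes. Without LPS, knockdown raised 3 and lowered 5 of the 29, shares no larger than the 13.7 and 20.1% of all genes. The block gave 9 raised and 6 lowered, against 20.7 and 26.3% of all genes. The strongest fall there was in Ticam2, which encodes the TRIF bridging adaptor TRAM, from 17.9 ± 0.547 to 6.93 ± 0.590 CPM (−1.37, adjusted p = 2.4e-04). Tlr9, the receptor for CpG DNA, fell by 0.78 (adjusted p = 0.0591).

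Interferon-β itself, the product of IRF3 activation, was counted almost only in LPS-treated libraries. Ifnb1 had 1, 1 and 0 counts in control cells without LPS and 187, 346 and 464 with LPS. No count fell on it in any knockdown library without LPS, and 21, 83 and 76 did with LPS. Since both unstimulated groups stood at or below 3 counts per library, no fold change with LPS is given. With LPS, Ifnb1 was lower in the knockdown (log2 fold change −2.67, SE 0.74, edgeR adjusted p = 0.0186), and replicate 1 held the fewest counts in both groups.

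Among 16 tested genes from the interferon receptors to ISGF3, 9 rose and 3 fell with LPS in control cells (median 0.84), and 8 rose and none fell in SF3a1 siRNA cells (0.39). With the block, 9 rose and 4 fell in control cells, against 18.8 and 25.0% of all genes. In SF3a1 siRNA cells 8 rose and 2 fell, against 11.3 and 9.48%. Knockdown lowered 9 and raised 3 with LPS (median −0.90), and lowered 5 and raised 3 without (5 and 4 with the block). The knockdown effect was called lower with LPS than without for 3 genes and higher for 0, and with the block for 6 and 2 (5.18 and 6.54% of all genes). Stat2 stood at 442, 417 and 373 CPM in control cells with LPS and at 88.3, 73.8 and 107 CPM in knockdown cells with LPS (log2 fold change −2.20, edgeR adjusted p = 5.19e-06), with an interaction of −1.40 (adjusted p = 0.0065).

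Usp18, which blocks the interferon receptor, rose from 17.5 ± 10.7 to 1340.5 ± 217 CPM with LPS in control cells and stood at 321 ± 39.0 in knockdown cells with LPS (log2 fold change −2.06, edgeR adjusted p = 0.00239). Socs3 rose from 18.3 ± 4.27 to 920.0 ± 295 CPM and Socs1 from 0.494 ± 0.165 to 17.9 ± 2.90 CPM. The receptor subunit gene Ifngr2 went the other way with knockdown, from 151 ± 6.74 to 289.6 ± 26.5 CPM without LPS (0.94, adjusted p = 3e-04) and from 229 ± 12.8 to 392 ± 47.8 CPM with LPS (0.78, adjusted p = 8.56e-04). Tyk2, a receptor kinase, stood at 144 ± 4.24 against 43.4 ± 14.5 CPM with LPS (−1.73, adjusted p = 8.56e-04). Ptpn6, the phosphatase SHP-1, fell by 0.88 in the knockdown without LPS (adjusted p = 0.0283).

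The targets of the IRFs responded together to LPS. Of 40 listed ISRE genes 37 were tested, and Cxcl9, Ciita and Il12b did not pass the filter on low counts. In control cells 37 rose (median 5.31) and in SF3a1 siRNA cells 36 (median 3.97). For 3 of the 37 the level of the filter was reached only with the LPS libraries, so that their rise is partly fixed by the filter. The other 34 had medians of 4.86 and 3.69, with 34 and 33 raised. Folds over unstimulated levels near 0 depend on the prior count of the fit. Nos2, the inducible nitric oxide synthase, reached 343 ± 19.2 CPM from 0.103 ± 0.051 in control cells. The chemokine gene Ccl5 reached 1232 ± 408 CPM, and the antiviral genes Ifit1 and Rsad2 reached 1337 ± 512 and 1055 ± 184 CPM, from unstimulated means of no more than 2.15 CPM for any of these 3.

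In the presence of LPS, SF3a1 knockdown lowered 35 of the 37 and raised none (median −2.06 against −0.04 over all genes). The exceptions were Oas2 (log2 fold change 0.11, edgeR adjusted p = 0.787) and Trim25 (0.15, adjusted p = 0.627), which had both risen with knockdown alone (1.20 and 0.93). Gbp2, a guanylate-binding protein of cell-autonomous immunity, stood at 200.3 ± 84.2 against 16.4 ± 5.23 CPM (−3.61, adjusted p = 5.82e-05). The chemokine Cxcl10 stood at 1903 ± 636 against 158 ± 88.2 CPM (−3.60, adjusted p = 2.54e-04), Isg20 at 153 ± 35.1 against 13.8 ± 3.72 CPM (−3.47, adjusted p = 1.48e-05) and Ifit2 at 632 ± 232 against 61.7 ± 31.3 CPM (−3.36, adjusted p = 7.03e-05). Without LPS, knockdown raised 5 and lowered 8 of the 37, where 13.7 and 20.1% of all genes were called, with a median of −0.52 against −0.02 over all genes. With the block 5 were raised and 12 lowered, against 20.7 and 26.3% of all genes. Psmb9, an immunoproteasome subunit, fell there from 21.3 ± 2.51 to 10.5 ± 1.40 CPM (−1.02, adjusted p = 5.49e-04). The interaction was called as a lower knockdown effect with LPS than without for 15 of the 37 and as a higher one for none. Of all genes these shares were 1.94 and 1.54%. With the replicate block these counts were 26 and 0 (5.18 and 6.54% of all genes). The 26 include Oas2 (edgeR adjusted p = 0.136 without the block and 0.0588 with it) and Trim25 (0.195 and 0.0611). For both of these the fitted knockdown effect was positive without LPS and smaller, not negative, with LPS.

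IRF partners showed a mixed pattern. Of 9 tested genes, LPS in control cells raised 4 and lowered 3. Knockdown with LPS raised 6 and lowered 3, and knockdown without LPS raised 3 (4 with the block). Batf2, which pairs with IRF1 in activated macrophages, rose from 0.975 ± 0.290 to 57.8 ± 12.7 CPM with LPS in control cells and stood at 4.88 ± 0.787 CPM in knockdown cells with LPS (−3.57, edgeR adjusted p = 7.51e-06), with an interaction of −3.26 (adjusted p = 0.00321). Spi1, which encodes the IRF8 partner PU.1, was higher in knockdown cells without LPS (744 ± 134 against 495 ± 53.0 CPM, adjusted p = 0.0132) and with LPS (0.61 on the log2 scale, adjusted p = 0.0101), opposite in sign to Irf8. Bcl6, a repressor, also stood higher in knockdown than in control cells with LPS (104 ± 3.06 against 62.8 ± 6.11 CPM, adjusted p = 0.00472). So did the IRF2 co-repressor gene Irf2bp1 (69.5 ± 2.12 against 43.2 ± 6.72 CPM, adjusted p = 0.00327). Without LPS the knockdown effect was 0.71 for Bcl6 (edgeR adjusted p = 0.00594) and 0.15 for Irf2bp1 (adjusted p = 0.505).

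Among 8 macrophage markers, LPS raised 5 and lowered 1 in control cells (median log2 fold change 1.20). In SF3a1 siRNA cells it raised 0 and lowered 1 (0.14), and 1 and 1 with the block. Of 3 tested dendritic cell markers, LPS in control cells raised 1 and lowered 2. Knockdown with LPS raised 2 of the 8 macrophage markers and lowered 2, and 3 and 3 with the block. Fcgr1, a high-affinity Fc receptor gene, stood at 456 CPM in control cells with LPS and at 49.5 in knockdown cells with LPS (log2 fold change −3.20), and Csf1r was higher by 0.69 (edgeR adjusted p = 0.002). Lyz2 differed by 0.25 (adjusted p = 0.338). Whether this movement of markers bears on the IRF levels was not tested.

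The genes whose pattern over the 12 libraries was most like that of each member were sought among the 9304 genes averaging 10 CPM or more, by the root mean square difference of log2 CPM after centring each gene. For Irf7 these were Dhx58, Apol9b and Ifi211, at 0.37 to 0.42 against a median of 2.35 over all genes. Irf1 was nearest to Enpp4, Slc31a2 and Bcl2a1b (0.42 to 0.43, median 1.54). For Irf9 they were Rbfox1, Adar and Mitd1 (0.24 to 0.27, median 1.12), and for Irf8 Dus2, St3gal6 and Pus10 (0.34 to 0.39, median 1.10). The flatter members had smaller differences against smaller medians. Irf2 was nearest to Ppp2r5a, Arhgap25 and Kremen1 (0.16 to 0.17, median 0.65), Irf3 to Zfpl1, Mfsd1 and Smarcad1 (0.08 to 0.10, median 0.47) and Irf5 to Alas1, Pak1ip1 and Wars (0.11 to 0.12, median 0.51). All genes share the same 12 libraries and their depths, so these are descriptions of likeness only.

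At the exon level, counts were available for 11 libraries, with 2 for control siRNA with LPS. The 7 genes held 187 exon bins, of which 155 were tested among 153624 in all. Irf9 was joined in the files with its neighbour Rnf31 in a single unit of 56 bins. The smallest exact permutation p with 2 libraries against 3 is 0.2, so the exon-level calls rest on the fit across all bins.

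In the SF3a1 comparison without LPS, 1 member bin was called, bin 15 of Irf3, where 0.626% of all tested bins were called, 0.497% higher and 0.128% lower. It made up 2.06, 0.817 and 1.39% of the Irf3 bin counts in control cells without LPS and 3.98, 4.20 and 3.75% in knockdown cells without LPS. With LPS the shares were 0.813 and 2.09% in the 2 control libraries and 3.78, 3.71 and 3.96% in the knockdown. Every knockdown library lay above every control library. Relative to the rest of the gene, the bin rose by 1.49 on the log2 scale without LPS (diffSpliceDGE adjusted p = 0.0639). With LPS the value was 1.51 (adjusted p = 0.274). This passed with the replicate block (adjusted p = 0.0176) and with voom (0.00608) but not with the DEXSeq model (0.103). The call without LPS was kept in 6 of 11 omissions of 1 library and lost in the other 5, those of replicates 2 and 3 of the unstimulated control group and of each unstimulated knockdown library (1.21 to 1.53). The highest adjusted p was 0.867, without replicate 2 of the control group. In replicates 2 and 3 alone it held (1.86, adjusted p = 7.48e-04). The bin was covered by 19 to 89 counts per library, and its position in the Irf3 transcripts is not given here, because the annotation at hand gave another number of bins for the gene than the files.

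By diffSpliceDGE no member bin was called in the other comparisons. Other fits called some, 3 with the replicate block, 1 with voom and 3 with the DEXSeq model for LPS in SF3a1 siRNA cells, and 4, 2 and 2 for knockdown with LPS. Over all bins, the block called 105 and voom 21 for LPS in SF3a1 siRNA cells (main 39). For knockdown with LPS the block called 1793 and the DEXSeq model 1283 (main 756). The background was thus larger than in the main fit for the block, and for the DEXSeq model in knockdown with LPS. It was smaller for voom with LPS in SF3a1 siRNA cells. Of 11 omissions of 1 library, 2 also called 1 member bin for knockdown with LPS, those of replicate 1 of the unstimulated control group and of the knockdown group with LPS. In the main fit, the share of tested bins called in either direction was 0.492% for knockdown with LPS (0.381% higher, 0.111% lower). It was 0.0801% for LPS in control cells (0.0514% higher, 0.0286% lower) and 0.0254% for LPS in knockdown cells (0.0208% higher, 0.00456% lower). In the interaction, 0 bins were called, against 2 with the block, 1 with voom and 4 with the DEXSeq model. Irf5 bin 3 (chr6:29528270-29528367, build mm10, plus strand), an exon part annotated in transcript Irf5-203, took 0.787, 0.463 and 0.567% of the Irf5 bin counts in control cells without LPS and 1.39, 1.11 and 1.5% in knockdown cells. Its log2 change was 1.12 (diffSpliceDGE adjusted p = 0.238), and it passed with the replicate block (adjusted p = 0.00162), in replicates 2 and 3 alone (1.35, adjusted p = 0.00275) and with the DEXSeq model (adjusted p = 0.0313), but not with voom (adjusted p = 0.458). In the joined unit of Irf9 and Rnf31, bin 15 changed by −1.68 with LPS in SF3a1 siRNA cells (adjusted p = 0.179, and 0.0011 with the block), and 26 of its 51 tested bins had an unadjusted p under 0.05. Since a unit that holds 2 genes moves whenever one of them moves against the other, these bins do not separate exon usage from the rise of Irf9.

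Irf7 bins are described here although none was called and although they were chosen after their values were seen. Bin 11 is a 93-base exon inside the coding sequence, present in 6 of the 11 transcripts, of 13 annotated, that gave the deposited number of Irf7 bins (chr7:141264223-141264315, build mm10, minus strand). Bin 14 and bins 20 to 22 are short introns retained in some annotated transcripts. The sequences below are those of the GENCODE vM21 annotation, in transcript direction, with the GT and AG at the ends of the introns in capitals.
Irf7 exon, bin 11: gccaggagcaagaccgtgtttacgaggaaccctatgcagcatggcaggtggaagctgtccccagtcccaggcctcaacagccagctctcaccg
Irf7 intron, bin 14: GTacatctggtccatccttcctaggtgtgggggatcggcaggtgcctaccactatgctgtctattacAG
Irf7 intron, bins 20 to 22: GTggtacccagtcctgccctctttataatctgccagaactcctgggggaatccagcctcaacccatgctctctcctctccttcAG

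Counts of the exon of bin 11 were set against the mean count of bins 9 and 12 on either side, without scaling for the length of the bins, so only differences between libraries can be read from the ratio. The ratio was 0.843, 1.06 and 1.31 in control cells without LPS and 0.722 and 0.899 with LPS. In knockdown cells it was 0.468, 0.575 and 0.612 without LPS and 0.472, 0.471 and 0.480 with LPS. No knockdown library reached the lowest control library. Relative to the whole gene, this bin had an adjusted p of 1 in both knockdown comparisons (diffSpliceDGE). A like ratio for Irf5 bin 9 (chr6:29534535-29534593) overlapped between the groups, at 0.713 to 0.894 in control cells without LPS and 0.645 to 0.763 in knockdown cells.

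Reads within introns of Irf7 were deep enough to read only in LPS-treated libraries, since unstimulated libraries held at most 15 counts in any of these introns. The intron of bins 20 to 22 was read from bin 21, which is 83 of its 85 bases. Per base, bin 21 held 4.28 and 4.15% of the counts of the flanking exon bins in control cells with LPS. The values were 6.77, 11.9 and 7.44% in knockdown cells with LPS. The knockdown libraries lay above both controls. In bin 14 the values were 16.1 and 12.2% against 12.6, 19.8 and 17.6%, and in bin 10 they were 4.00 and 4.23% against 1.64, 11.3 and 7.90%, so that both of these introns overlapped between the groups.

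**Figure D3:**
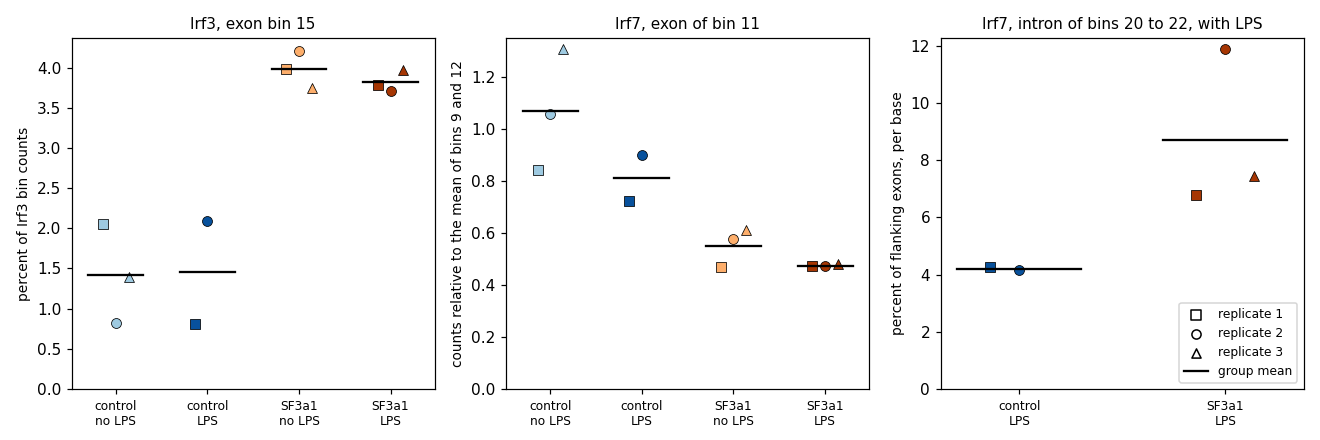
Exon-level values per library: the percent of Irf3 bin counts in bin 15, the ratio of Irf7 bin 11 to the mean of bins 9 and 12, and the coverage of the Irf7 intron of bins 20 to 22 in percent of its flanking exons with LPS. In each panel the knockdown libraries and the control libraries do not overlap.

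Several members share ground with other genes. Transcripts on the opposite strand overlap Irf1, Irf2, Irf3 (Bcl2l12), Irf5 (Tnpo3) and Irf7 (Phrf1), and Irf8 and Irf9 overlap annotated genes on their own strand. Whether counting used the strand is not given in the sources used here, so reads in the shared stretches cannot be assigned to one gene with certainty.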

How the data were processed

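Gene counts and exon bin counts were deposited by the authors as whole numbers per library, with no normalization. The submitters' processing notes name GSNAP, HTSeq (0.5.4p) and the mouse build mm10. The strand setting of the counting is not given in the sources used here. Reads in no gene made up 17.8 to 27.2% of a library and were left out. Replicate 1 of each group pools 2 sequencing runs, per the file names.

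The gene counts of all 12 libraries were fitted with edgeR 4.0.16 (R 4.3.3; TMM scaling, filterByExpr, quasi-likelihood test, 1 mean per group), and adjusted by Benjamini-Hochberg over 14983 genes; calls used an adjusted p of 0.1 or less. Exon bins (153624 tested) were fitted with diffSpliceDGE on 11 libraries, without the replicate 3 library of LPS-treated control cells, whose bins are not analysed here. The model used by the authors' exon analysis was refitted with DESeq2 1.42.0 as an alternative, and voom with limma 3.58.1 as another. The main gene fit and the main exon bin fit were tested on simulated data, for SF3a1 against control siRNA without LPS. The alternative fits and the other comparisons were not.

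The members and the lists were chosen with earlier results of these data known. Named in the text are the 7 members, Sf3a1, Ifnb1 and Stat2, from each list up to 4 called genes per comparison with the largest change, at least 5 CPM on average and no overlap, every called member bin or otherwise the bin with the smallest p, and the 3 genes most alike to each member. An item that this rule would name is not reported here. Exceptions named after their values were seen are Oas2 and Trim25 with LPS and SF3a1 siRNA, bins 9, 10, 11, 14 and 20 to 22 of Irf5 or Irf7, and marker genes. Same-numbered libraries of different groups deviated together from their group means in all 18 pairs of libraries (correlation 0.14 to 0.66, median 0.43), and by this rule the numbers pair the samples. Replicate 2 and replicate 3 libraries of different groups also correlated (0.046 to 0.417, median 0.25), so the pattern is largely that of replicate 1 against the others. A fit with the replicate number as a block was an alternative. Alternatives also covered other size factors, no filter on low counts, DESeq2, another filter on bins and leaving out each library; a fit on replicates 2 and 3 only was added after seeing the data. Promoters were taken from RefSeq tables of GRCm38.p6 for all 7 genes, and exon bins were placed with GENCODE vM21 (mm10). The bins of Irf3, Irf8 and the Irf9 unit could not be placed.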

Additional observations from a re-analysis of the deposited data

Results flagged for a closer look

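Both entries here are differences between the SF3a1 effects with and without LPS. For Irf1 the SF3a1 effect was more negative with LPS by −1.94 on the log2 scale (edgeR adjusted p = 0.046), with effects of −0.48 without LPS and −2.42 with LPS. For Irf7 it was more negative by −2.30 (adjusted p = 0.0743), with effects of −0.14 and −2.44. All 3 knockdown libraries with LPS lay below all 3 control libraries with LPS for both genes. With 1 library left out, the call was lost in 4 of 12 cases for Irf1 and in 9 of 12 for Irf7. With the replicate block both were called (Irf1 −1.92, edgeR adjusted p = 0.0166, and Irf7 −2.28, adjusted p = 0.0186).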

How the results depend on the processing

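Under other settings, 195 values of members and their named bins kept direction and side of the threshold, 13 newly passed it, 1 no longer did and 3 changed sign; with 1 library left out the numbers were 449, 6, 32 and 10. With the replicate block, Irf2 with LPS in SF3a1 siRNA cells (0.46), the Irf2 interaction (−0.71), Irf5 with LPS in control cells (0.42), Irf5 with SF3a1 siRNA without LPS (−0.30), the Irf8 interaction (−0.81) and 3 named bins (Irf5 bin 3 with SF3a1 siRNA without LPS, Irf3 bin 15 with SF3a1 siRNA and LPS, and bin 15 of the Irf9 unit with LPS in SF3a1 siRNA cells) passed the threshold, and the block changed no other call of a member gene. Irf5 with LPS in control cells also passed with RLE size factors and with DESeq2 (0.47 in both). In replicates 2 and 3 only, chosen after seeing the data, Irf2 with LPS in SF3a1 siRNA cells passed (0.62) and Irf8 there changed sign (0.090, not called), while Irf5 bin 3 passed with SF3a1 siRNA without LPS (1.35). The DEXSeq model also passed Irf5 bin 3 (1.15) and bin 15 of the Irf9 unit (−1.70). The Irf3 interaction changed sign, uncalled, with RLE size factors and DESeq2 (−0.021 in both), and Irf9 with SF3a1 siRNA without LPS was lost with no filter on low counts (−0.44). The cause was not tested.

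The block called 3115 genes for LPS in SF3a1 siRNA cells (main 1598) and 1756 for the interaction (main 520), where no filter gave 930, DESeq2 966 and replicates 2 and 3 only 1012, and where 4 members passed. Exon bins called were 285 with the block and 186 with the DEXSeq model for LPS in control cells (main 123), 105 with the block and 21 with voom for LPS in SF3a1 siRNA cells (main 39), 2113 with the block, 1466 in replicates 2 and 3 only and 1490 with the DEXSeq model for SF3a1 siRNA without LPS (main 961), 1793 and 1283 with the block and the DEXSeq model for SF3a1 siRNA with LPS (main 756), and 2, 1, 2 and 4 for the interaction (main 0) with the block, voom, replicates 2 and 3 only and the DEXSeq model. Member bins called were 3, 1 and 3 for LPS in SF3a1 siRNA cells (main 0; block, voom, DEXSeq model), 2 each for SF3a1 siRNA without LPS (main 1; block, replicates 2 and 3 only, DEXSeq model) and 4, 2 and 2 with LPS (main 0; block, voom, DEXSeq model). By longest transcript, 3 of 7 genes kept their rank in each group without LPS.

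With 1 library left out, the interaction ranged from −2.25 to −1.68 for Irf1, −2.96 to −1.91 for Irf7, −0.85 to −0.57 for Irf2 and −0.056 to 0.046 for Irf3. LPS in SF3a1 siRNA cells ranged from 0.34 to 0.60 for Irf2, 0.46 to 0.74 for Irf5 and −0.29 to 0.29 for Irf8, and LPS in control cells from 0.25 to 0.56 for Irf5 and 0.60 to 1.11 for Irf8. SF3a1 siRNA without LPS ranged from −0.23 to 0.050 for Irf2, −0.30 to 0.20 for Irf7, −0.47 to −0.18 for Irf9 and 1.21 to 1.85 for Irf3 bin 15, and with LPS from −0.27 to 0.089 for Irf5. Genes called ranged from 1050 to 2005 for LPS in SF3a1 siRNA cells and 273 to 711 for the interaction, where 0 to 2 members passed. Exon bins called ranged from 49 to 158 for LPS in control cells, 527 to 1131 for SF3a1 siRNA without LPS (0 to 1 of members), 101 to 888 with LPS (0 to 1 of members) and 0 to 3 for the interaction. Usage per base could not give a value for bins without coordinates, for Irf2 bin 5 or for Irf7 bin 20. Exon bins rest on 11 libraries, with 2 for control siRNA with LPS, and Irf3 bin 15 on 19 to 89 counts a library. The unstimulated levels of the Irf7 introns rest on 15 counts or fewer.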
